A study of Mus musculus with 6 samples.

Results

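The 36 genes described here encode enzymes of cholesterol and fatty acid synthesis and the proteins of the SREBP system that controls them. They were taken from a list of gene names, and a gene had to reach 1 CPM in 3 or more of the 6 libraries, CPM being the count scaled to a common library size. All 36 met that level, out of 15009 genes that met it and 26814 genes in the count table. The list holds 19 sterol genes (7 for the mevalonate steps, 11 for the steps from squalene to cholesterol and the sterol carrier Stard4), 12 fatty acid genes and 5 SREBP control genes. RNA-Seq counts were measured in top lip of 3 female mice labelled Gtf2ird1 knockout (KO) and 3 female wild type mice (WT), with 1 library per mouse. All the mice were adults of 2 to 6 months on a C57BL/6J background, and the KO mice carried the targeted allele tm1Hrd of Gtf2ird1, the gene of a transcriptional regulator whose human counterpart lies in the Williams-Beuren syndrome deletion. The lip sample was whole tissue, and the RNA integrity numbers ran from 9 to 9.5. The comparison made here is KO against WT.

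Cholesterol is built in the cytosol and endoplasmic reticulum from acetyl-CoA. The mevalonate steps lead to isoprenoid units, squalene is made from these, and a long series of demethylations, reductions and isomerisations turns the first sterol, lanosterol, into cholesterol. Fatty acid synthesis starts from the same acetyl-CoA, which is carboxylated to malonyl-CoA and then condensed into palmitate, which is elongated and desaturated in the endoplasmic reticulum. The membrane-bound transcription factors SREBP-1 and SREBP-2 are escorted to the Golgi by SCAP when sterols are low, are cut there and then switch on the genes of both routes, while INSIG proteins hold the complex back when sterols are high. Skin uses both routes for its sebum and for the barrier lipids of the epidermis.

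The libraries held 20164081 to 29491767 counts, so that each of the 36 genes had at least 225 counts in every library and at most 22043. Gtf2ird1 itself went against the label. It stood at 78.2, 70.2 and 70.7 CPM in WT1, WT2 and WT3 and at 166, 162 and 144 CPM in the libraries labelled KO1, KO2 and KO3 (log2 fold change 1.11, adjusted p = 0.0018, edgeR quasi-likelihood test). A count over the whole gene does not show whether a transcript carries the mutation, so KO below means "labelled KO". KO3 stood apart from KO1 and KO2, and it was the KO library nearest to the WT mean in 20 of the 36 genes. The share of all tested genes with this order was not computed, so the count does not set these 36 genes apart. Results that rest on KO3 are given with and without it. Epidermal keratinocyte markers were present in all 6 libraries (summed level of 6 basal markers 9457 to 11219 CPM), and muscle, fibroblast, fat, hair follicle and sebaceous markers were present as well.

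Of the 36 genes, 1 rose in KO, 2 fell and 33 did not pass the test (edgeR quasi-likelihood test, Benjamini-Hochberg adjusted p under 0.05 over all 15009 genes). The gene that rose was Sc5d, of the last steps of cholesterol synthesis. Those that fell were Acacb, which makes malonyl-CoA at the mitochondrial surface, and Elovl5, an elongase of polyunsaturated fatty acids. The share that rose was 2.78%, against 4.38% of all tested genes, and the share that fell was 5.56%, against 2.09% of all tested genes. The log2 fold changes were positive for 18 genes and negative for the other 18, with a median of 0.0026, against a median of -0.023 over all tested genes. In 8 genes all 3 KO libraries lay above all 3 WT libraries (22.2%, against 13.5% of all tested genes), and in 7 genes they lay below (19.4%, against 18.1%). The median over the sterol genes was 0.20 and the median over the fatty acid genes was -0.26. The plot of fold changes by gene shows how these values lie around 0.

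**Figure D1:**
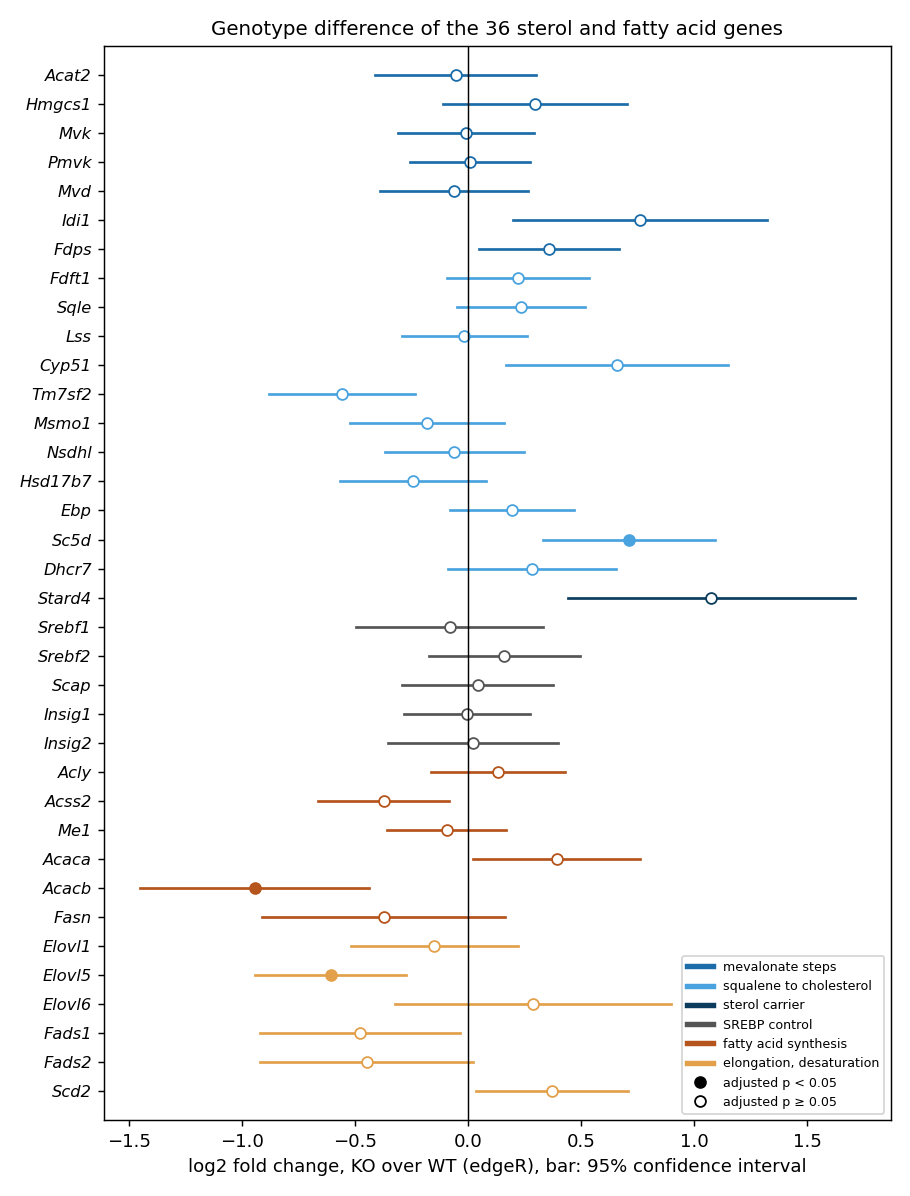
Log2 fold change of KO over WT (horizontal axis) for each of the 36 genes (vertical axis), grouped by colour into pathway steps, with bars for the 95% confidence interval of the edgeR fit; filled points passed the test at adjusted p under 0.05. Sc5d, Acacb and Elovl5 are filled, Stard4 has the highest value (1.08) and Acacb the lowest (-0.94).

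Among the 7 mevalonate genes none passed the test, and the median log2 fold change was 0.0091. The values of 6 of them lay between -0.06 and 0.36, with Idi1 above. Acat2, which joins acetyl-CoA units, had a log2 fold change of -0.05, and Mvk, Pmvk and Mvd, the kinases and the decarboxylase that turn mevalonate into isopentenyl diphosphate, had values of -0.01, 0.01 and -0.06. Pmvk was the steadiest of these, at 60.5, 62.3 and 59.4 CPM in WT and 64.1, 59.3 and 59.9 CPM in KO. Its 95% interval ran from -0.26 to 0.28. Acat2 shares long stretches with Acat3 and with Tcp1, so its value is uncertain.

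Idi1 encodes the isomerase that makes dimethylallyl diphosphate. It was at 107, 121 and 96.4 CPM in WT1, WT2 and WT3 and at 218, 217 and 115 CPM in KO1, KO2 and KO3. KO1 and KO2 were both above all WT libraries, while KO3 lay within the WT range. The log2 fold change was 0.76 (SE 0.24, adjusted p = 0.0925), and without KO3 it was 1.01 (adjusted p = 0.0016, edgeR). Hmgcs1, the synthase that makes HMG-CoA, was at 475, 623 and 516 CPM in WT and 716, 725 and 543 CPM in KO. KO3 again lay inside the WT range, and the fitted log2 difference was 0.30 (SE 0.18, adjusted p = 0.288). Fdps, which joins isoprenoid units into farnesyl diphosphate, was at 152, 171 and 192 CPM in WT and 216, 216 and 230 CPM in KO. Here the groups did not overlap, and the difference was 0.36 (SE 0.13, adjusted p = 0.125). Idi1 has stretches in common with the pseudogene models Gm13502 and Gm35570 and shares exon bases with Gm48574 on the opposite strand, and Fdps shares exon bases with Gm43738, so reads of these genes could have been split by the counting.

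In the steps from squalene to cholesterol 1 of 11 genes rose, none fell and 10 did not pass the test. Sc5d encodes sterol C5-desaturase, which makes 7-dehydrocholesterol from lathosterol, and spans chr9:42251595-42264256 (GRCm38, minus strand). It was at 35.0, 36.2 and 31.8 CPM in WT (34.3 ± 2.26, SD, n = 3) and at 62.4, 62.1 and 44.3 CPM in KO (56.3 ± 10.4, SD, n = 3). The groups did not overlap, with KO3 between the WT libraries and KO1 and KO2. The log2 fold change was 0.71 (SE 0.17, adjusted p = 0.0451, edgeR quasi-likelihood test), or 1.64-fold. The call depended on which libraries entered: Sc5d passed without KO3 (0.86, adjusted p = 0.0021) and in none of the other 5 fits that left out 1 library each, where its log2 fold change was at least 0.66.

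Cyp51, the lanosterol demethylase, was at 142, 236 and 160 CPM in WT and at 309, 305 and 236 CPM in KO. WT2 and KO3 had the same level to 3 digits, and Cyp51 is one of the 8 genes with KO above WT by a margin smaller than that. The log2 difference was 0.66 (SE 0.21, adjusted p = 0.0944), and it was 0.97 without WT2 and 0.78 without KO3, both of which passed the test. Tm7sf2, a sterol C14-reductase, had the opposite sign and the lowest level per kilobase of exon but one. It was at 18.7, 17.5 and 17.9 CPM in WT and 11.5, 13.1 and 12.1 CPM in KO, without overlap and with little spread inside either group. Its log2 fold change was -0.56 (SE 0.14, adjusted p = 0.0571). Part of its exon sequence, 532 bases, is also exon of Vps51 on the same strand, so the counting could have assigned reads to either gene. Cyp51 shares 166 exon bases with Akap9 on the opposite strand.

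Sqle, the epoxidase that commits squalene to sterols, was at 173, 187 and 185 CPM in WT and 229, 215 and 197 CPM in KO. The KO libraries were all above WT, by 0.24 on the log2 scale (SE 0.12, adjusted p = 0.236). Fdft1, the squalene synthase, and Ebp, the sterol isomerase, also had KO above WT in every library, with log2 fold changes of 0.22 and 0.20 that did not pass the test. Dhcr7, which makes cholesterol from 7-dehydrocholesterol, had a value of 0.28 with overlapping groups. Hsd17b7, a ketoreductase of the C4 demethylation, was at 153, 141 and 180 CPM in WT and 135, 123 and 143 CPM in KO, a log2 fold change of -0.24 (SE 0.14, adjusted p = 0.277) with KO3 inside the WT range. Msmo1, the C4-methylsterol oxidase, was at 373, 383 and 305 CPM in WT and 321, 336 and 281 CPM in KO, a value of -0.18 (SE 0.15, adjusted p = 0.438). Fdft1 shares 774 exon bases with Ctsb, which lies on the opposite strand. For Lss, the cyclase that makes lanosterol, the value was -0.02, and for Nsdhl, the C4-decarboxylating dehydrogenase, it was -0.06.

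Stard4 encodes a soluble carrier that moves sterol between membranes. It had the highest log2 fold change of the 36 genes. The levels were 51.7, 68.1 and 45.0 CPM in WT1, WT2 and WT3 and 142, 135 and 71.1 CPM in KO1, KO2 and KO3. All KO libraries were above all WT libraries, although KO3 exceeded WT2 only narrowly. On the log2 scale KO was higher by 1.08 (SE 0.28, adjusted p = 0.059, edgeR quasi-likelihood test). By edgeR's exact test the adjusted p was 0.0017, and without KO3 the quasi-likelihood test gave 1.34 (adjusted p = 0.0013).

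Among the 19 sterol genes WT2 was the highest WT library in 9 and KO3 the lowest KO library in 7 (Hmgcs1, Idi1, Sqle, Cyp51, Msmo1, Sc5d and Stard4), and all of these 7 were among the 9. Both held in 36.8% of the sterol genes, against 27.1% of all tested genes, so this order of the libraries was common in the whole table as well. In 6 of the 7, Msmo1 aside, KO1 and KO2 were above every WT library. Summed over the 19 sterol genes the level was 2534, 2833 and 2660 CPM in WT (2676 ± 150, SD, n = 3) and 3288, 3249 and 2890 CPM in KO (3143 ± 220, SD, n = 3). The sums did not overlap, with KO3 next to WT2. Abundant genes weigh most in such a sum, and the log2 fold changes were positive for 11 of the 19 genes and negative for 8. The sums cover the listed genes only, not every enzyme of sterol synthesis. The sum of a marker list was also higher in KO. Of 6 suprabasal keratinocyte markers 1 rose (Ivl), while 4.38% of all tested genes rose. The log2 fold changes of these markers were positive for 5 and negative for 1. Their summed level was 22894, 22678 and 18648 CPM in WT1, WT2 and WT3 and 43876, 36607 and 29425 CPM in KO1, KO2 and KO3. KO3 was the lowest KO library in both sums. Among the WT libraries WT1 was highest in the marker sums and WT2 in the sterol sums. The part of that list in the sterol values was not tested. Since each library is whole tissue, fewer cells of a type and less RNA per cell cannot be told apart in any of these comparisons.

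**Figure D2:**
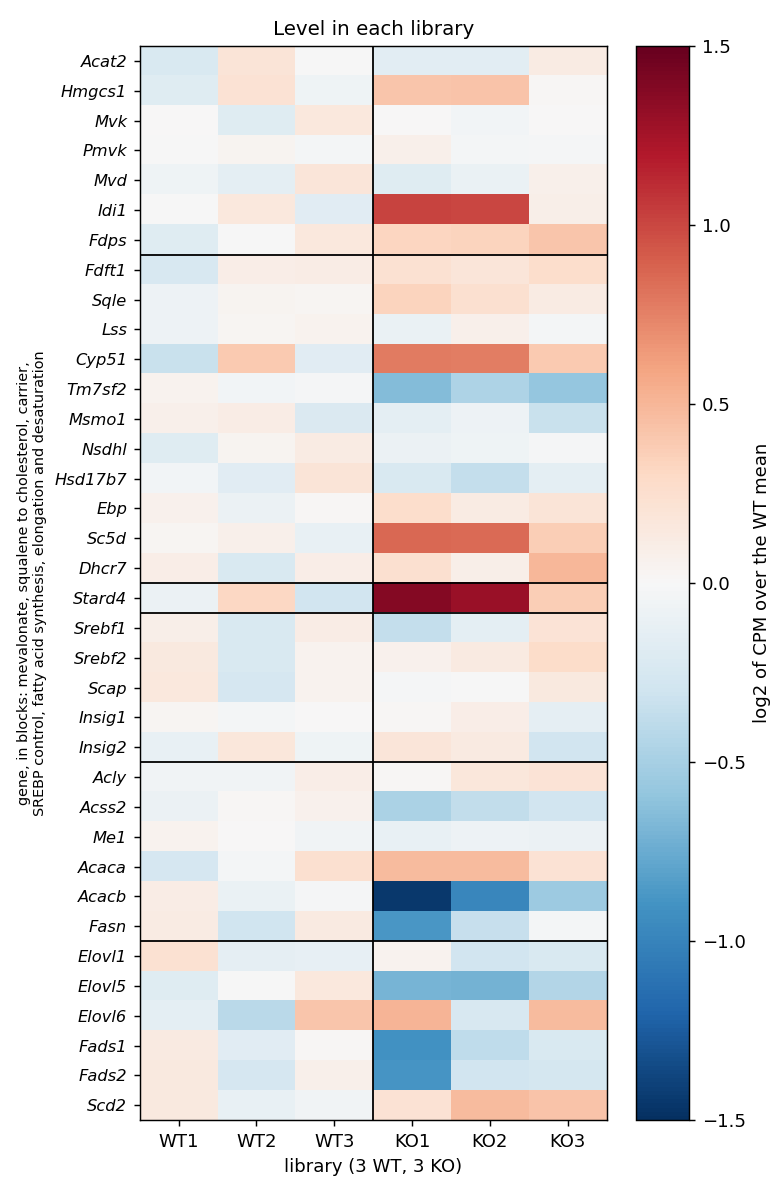
Level of each of the 36 genes (rows, in pathway blocks) in each library (columns, 3 WT and 3 KO), as log2 of CPM over the WT mean (red above, blue below). KO1 and KO2 are darkest red in Stard4, Idi1, Sc5d and Cyp51, where KO3 is paler, while Acacb is the darkest blue gene in KO1 and in KO2, and Elovl5, Tm7sf2, Acss2, Fads1 and Fads2 are blue in all 3 KO libraries.

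The 5 SREBP control genes did not pass the test in either direction, with adjusted p values from 0.479 to 0.986 (edgeR) and log2 fold changes from -0.08 to 0.16. Srebf1, the gene of the SREBP-1 factors, was at 187, 149 and 190 CPM in WT and 137, 158 and 203 CPM in KO. Srebf2, the gene of SREBP-2, was at 287, 221 and 268 CPM in WT and 271, 285 and 312 CPM in KO. The libraries of both groups were interleaved in each gene. Scap, the escort protein, was at 141, 106 and 131 CPM in WT and 125, 126 and 140 CPM in KO. Insig1 was at 95.7, 91.8 and 94.2 CPM in WT and 94.7, 101 and 85.6 CPM in KO, and Insig2 was at 69.6, 84.2 and 71.6 CPM in WT and 85.2, 82.6 and 61.4 CPM in KO. Both INSIG genes overlapped between the groups, and the 95% interval of the difference ran from -0.28 to 0.27 for Insig1 and from -0.35 to 0.40 for Insig2. Insig1 is itself a classical SREBP target. The log2 ratio of Srebf1 to Srebf2 was -0.62, -0.56 and -0.50 in WT and -0.99, -0.85 and -0.62 in KO, lower in all 3 KO libraries by 0.26 on average (exact permutation test, two-sided, p = 0.1, the smallest p that 3 against 3 allows, and 0.2 adjusted over 4 gene pairs). KO3 (-0.621) lay only just below WT1 (-0.618), so the separation of the groups, and with it this p, rests on a near tie. The log2 ratio of Insig1 to Insig2 differed by -0.02 (exact permutation p = 1).

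SREBP factors act through sterol regulatory elements, usually beside sites of NF-Y, which binds the CCAAT box, or of SP1, which binds GC boxes. RefSeq promoters (GRCm38.p6, 250 bases before to 50 after the start) were searched on both strands for TCACNCCAC, CCAAT and GGGCGG. TCACNCCAC is 1 consensus of the sterol regulatory element, and other forms of the element were not searched for. Of the 36 genes, 30 had an entry. Fdft1, Fdps, Sqle, Stard4, Fads1 and Scd2 had none. TCACNCCAC was found in 1 gene, Hmgcs1, and in 1.44% of the 27025 genes with an entry. CCAAT was found in 25 of the 30 genes, against 41.1% of all genes with an entry, and GGGCGG in 24 of the 30, against 38.2%. A gene with several promoters was counted when any of them held the letters, and none of the 3 motifs contains another. A match is a description of letters, not of binding, and a gene without TCACNCCAC may hold the element in other letters. Windows of 150 bases are printed for the 3 genes that passed the test, for the sterol genes Idi1 and Cyp51 with the next highest differences that had an entry, and for Hmgcs1 as the holder of the element, with TCACNCCAC and CCAAT matches (ATTGG on the other strand) in capitals. All are written 5′ to 3′ along the gene's strand. The window of Sc5d is at chr9:42264251-42264400 on the minus strand, that of Idi1 at chr13:8885506-8885655 on the plus strand and that of Cyp51 at chr5:4104648-4104797 on the minus strand. The window of Hmgcs1 is at chr13:119690144-119690293, that of Acacb at chr5:114165418-114165567 and that of Elovl5 at chr9:77917265-77917414, all on the plus strand. Each covers the RefSeq start site and the bases before it except that of Hmgcs1, which lies around its TCACNCCAC match, 137 bases before the start. The window of Acacb lies inside the annotated gene, which begins at chr5:114146535, so it belongs to an internal start site.
Sc5d: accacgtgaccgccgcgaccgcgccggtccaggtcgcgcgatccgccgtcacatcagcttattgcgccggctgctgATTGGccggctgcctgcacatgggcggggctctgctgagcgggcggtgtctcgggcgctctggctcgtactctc
Idi1: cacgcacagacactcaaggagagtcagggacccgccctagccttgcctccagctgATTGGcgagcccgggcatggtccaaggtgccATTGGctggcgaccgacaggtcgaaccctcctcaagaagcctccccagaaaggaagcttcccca
Cyp51: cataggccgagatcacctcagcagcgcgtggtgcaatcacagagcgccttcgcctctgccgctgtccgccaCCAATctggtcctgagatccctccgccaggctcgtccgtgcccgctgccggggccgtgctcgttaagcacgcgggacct
Hmgcs1: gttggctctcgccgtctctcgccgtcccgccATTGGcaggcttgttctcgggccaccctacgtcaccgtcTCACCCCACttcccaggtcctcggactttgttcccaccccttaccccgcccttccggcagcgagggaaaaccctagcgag
Acacb: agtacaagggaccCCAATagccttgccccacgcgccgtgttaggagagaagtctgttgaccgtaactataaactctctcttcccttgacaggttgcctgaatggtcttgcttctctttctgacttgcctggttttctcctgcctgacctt
Elovl5: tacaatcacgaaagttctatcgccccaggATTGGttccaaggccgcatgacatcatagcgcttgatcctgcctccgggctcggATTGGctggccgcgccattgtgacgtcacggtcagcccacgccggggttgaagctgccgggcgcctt
Sc5d, Idi1, Cyp51, Acacb and Elovl5 each held a CCAAT box and no TCACNCCAC, whether the gene's KO level was above or below WT. Whether they hold the element in other letters was not tested.

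In the first part of fatty acid synthesis 1 of 6 genes fell, none rose and 5 did not pass the test. Acacb encodes acetyl-CoA carboxylase 2, whose malonyl-CoA restrains the entry of fatty acids into mitochondria and which is abundant in muscle. Its gene spans chr5:114146535-114250761 (GRCm38, plus strand). It was at 264, 228 and 243 CPM in WT (245 ± 18.1, SD, n = 3) and at 89.8, 124 and 168 CPM in KO (128 ± 39.4, SD, n = 3). The groups did not overlap, and KO3 was again nearest to WT. The log2 fold change was -0.94 (SE 0.22, adjusted p = 0.0453, edgeR quasi-likelihood test), a KO level 0.520 times that of WT. Without KO3 it was -1.19 (adjusted p = 0.0018), and in the other 5 fits that left out 1 library it lay at -0.68 or lower and did not pass.

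Acaca encodes the cytosolic carboxylase, acetyl-CoA carboxylase 1, which supplies malonyl-CoA for palmitate. Its levels were 93.0, 109 and 131 CPM in WT and 154, 154 and 129 CPM in KO. KO3 lay just below WT3, and the log2 fold change was 0.39 (SE 0.16, adjusted p = 0.151). The log2 ratio of Acaca to Acacb was -1.51, -1.07 and -0.89 in WT and 0.78, 0.31 and -0.38 in KO. It was higher in every KO library than in every WT library, by 1.39 on average (exact permutation test, two-sided, p = 0.1, the smallest possible, adjusted p = 0.2). Reads of Acaca could be shared with the pseudogene model Gm5182, which matches it over long stretches, whereas no such copy or overlapping gene was found for Acacb.

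Fasn, the multifunctional enzyme that builds palmitate, was at 699, 522 and 701 CPM in WT and at 350, 506 and 629 CPM in KO. KO1 and KO2 were below the WT libraries and KO3 was among them. On the log2 scale the difference was -0.37 (SE 0.23, adjusted p = 0.311). Acss2, which makes acetyl-CoA from acetate, was at 38.5, 41.2 and 42.5 CPM in WT and 29.4, 31.7 and 33.3 CPM in KO. These groups did not overlap, and the difference was -0.37 (SE 0.13, adjusted p = 0.103). Exons of 3 genes on the opposite strand (Acss2os, Ggt7 and Gss) share bases with Acss2. Acly, the citrate lyase that supplies cytosolic acetyl-CoA, was at 323, 321 and 357 CPM in WT and 339, 374 and 385 CPM in KO, a log2 fold change of 0.13 (SE 0.13, adjusted p = 0.511). Me1, the malic enzyme that supplies NADPH, had a log2 fold change of -0.09, small but with every KO library below every WT library. Me1 shares stretches of up to 1716 bases with the gene models Gm48795, Gm7049 and Gm7329, so its value is uncertain.

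Of the 6 elongation and desaturation genes 1 fell and none rose. Elovl5, at chr9:77917364-77984519 (GRCm38, plus strand), extends polyunsaturated fatty acids. It was at 67.3, 75.8 and 84.9 CPM in WT (76.0 ± 8.81, SD, n = 3) and at 46.9, 46.7 and 56.1 CPM in KO (49.9 ± 5.36, SD, n = 3). No KO library reached the lowest WT library. The log2 fold change was -0.61 (SE 0.15, adjusted p = 0.0482, edgeR quasi-likelihood test), a KO level 0.657 times that of WT. Without KO3 it was -0.69 (adjusted p = 0.0076), and it did not pass in the 5 fits without 1 of the other libraries, where its log2 fold change was -0.50 or lower.

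Fads1 and Fads2 encode the delta-5 and delta-6 desaturases that act in turn with Elovl5 on polyunsaturated chains. Fads1 was at 55.7, 45.1 and 51.4 CPM in WT and 27.1, 39.0 and 43.3 CPM in KO. Fads2 was at 31.5, 23.8 and 30.0 CPM in WT and 15.4, 23.4 and 23.7 CPM in KO. In both, KO1 was well below the other libraries and the remaining KO libraries lay under the lowest WT library. The log2 fold changes were -0.48 (SE 0.19, adjusted p = 0.146) and -0.45 (SE 0.20, adjusted p = 0.185). KO1 was the lowest of all 6 libraries in 6 of the 12 fatty acid genes. The share of all tested genes with KO1 lowest was not computed.

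Scd2, a stearoyl-CoA desaturase that makes monounsaturated fatty acids, had the opposite sign. It was at 500, 421 and 438 CPM in WT and 525, 627 and 609 CPM in KO. Every KO library was above every WT library, by 0.37 on the log2 scale (SE 0.15, adjusted p = 0.138). Elovl6, which extends palmitate to stearate, was at 242, 203 and 357 CPM in WT and 382, 226 and 372 CPM in KO, with wide spread in both groups and a log2 fold change of 0.29 (SE 0.27, adjusted p = 0.490). Elovl1, an elongase of very long saturated chains, had a log2 fold change of -0.15. The log2 ratio of Elovl6 to Elovl1 differed by 0.44 between KO and WT (exact permutation p = 0.3, adjusted p = 0.4).

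**Figure D3:**
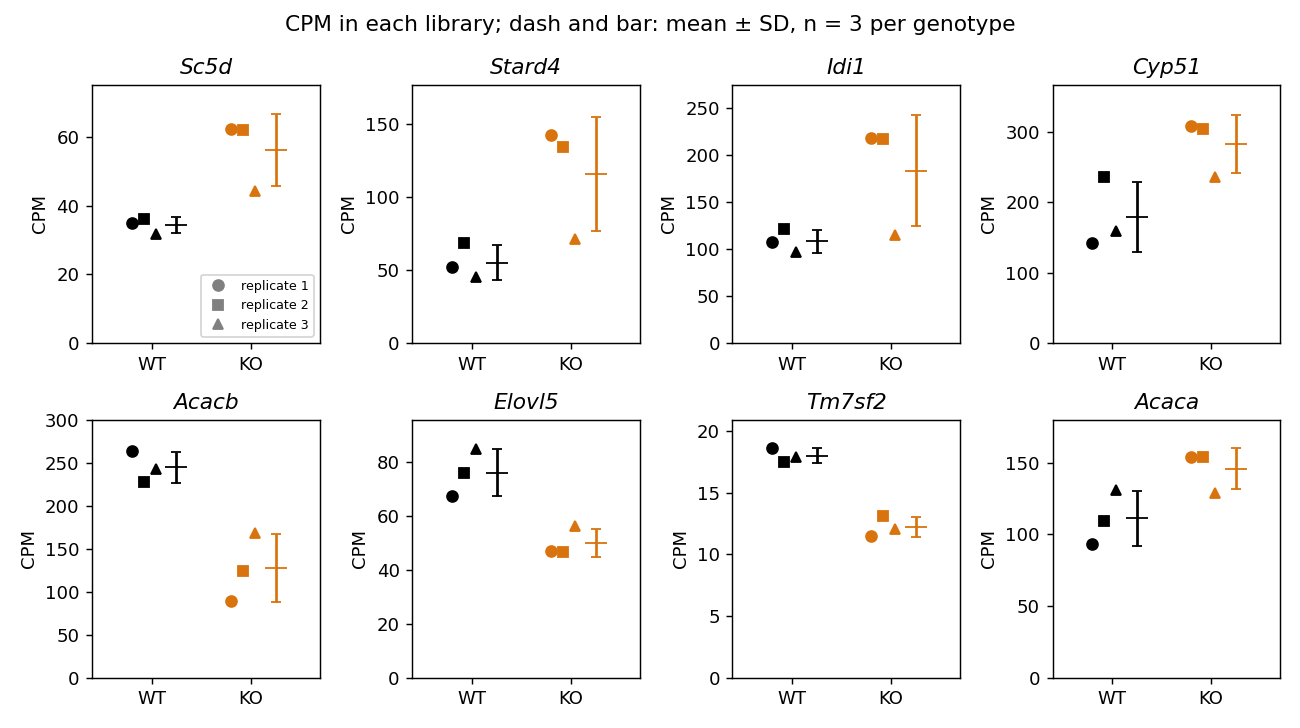
CPM (vertical axis, from 0) of 8 genes in each library of WT (black) and KO (orange); marker shape gives the replicate number, and the dash with its bar is the mean ± SD (n = 3). KO3 (triangle) lies nearest to WT in Sc5d, Stard4, Idi1, Cyp51, Acacb, Elovl5 and Acaca but not in Tm7sf2.

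Unlike the sterol genes, the fatty acid genes overlapped in their summed level, which was 2770, 2383 and 2821 CPM in WT and 2362, 2514 and 2816 CPM in KO. Single genes of either sign lie behind this sum. Lists of marker genes of other cell types in the lip are given beside these values. Of 8 sebocyte markers 1 rose (Scd3) and 1 fell (Awat1), and their sums were 2075 to 2602 CPM in WT and 1395 to 1904 CPM in KO. Of 8 adipocyte markers 1 fell (Fabp4), and the sums were 124 to 186 CPM in WT and 107 to 109 CPM in KO. Of 8 skeletal muscle markers 2 fell (Tnnt3 and Tnni2), and the sums were 10890 to 15810 CPM in WT and 4384 to 9311 CPM in KO. None of the 6 hair follicle markers (5427 to 6796 CPM in WT, 3531 to 4675 CPM in KO) and none of the 6 dermal fibroblast markers (6355 to 8325 CPM in WT, 2730 to 6660 CPM in KO) passed the test. Of all tested genes 4.38% rose and 2.09% fell. The log2 fold changes were negative for all muscle, hair follicle and fibroblast markers, for 7 of 8 sebocyte markers and for 7 of 8 adipocyte markers. All 3 KO libraries lay below all 3 WT libraries in 8 muscle, 5 hair follicle, 3 sebocyte, 2 adipocyte and 0 fibroblast markers. Over all tested genes this held in 18.1%. No marker of these lists was at 0 in any library. In the muscle, fibroblast, sebocyte and hair follicle sums, as in Acacb, Fasn, Fads1 and Fads2, KO1 was lowest, KO2 next and KO3 nearest to WT. The adipocyte sums and Elovl5 did not follow this order. The part of these lists in the values of Acacb, Elovl5, Fads1, Fads2 and Fasn was not tested.

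**Figure D4:**
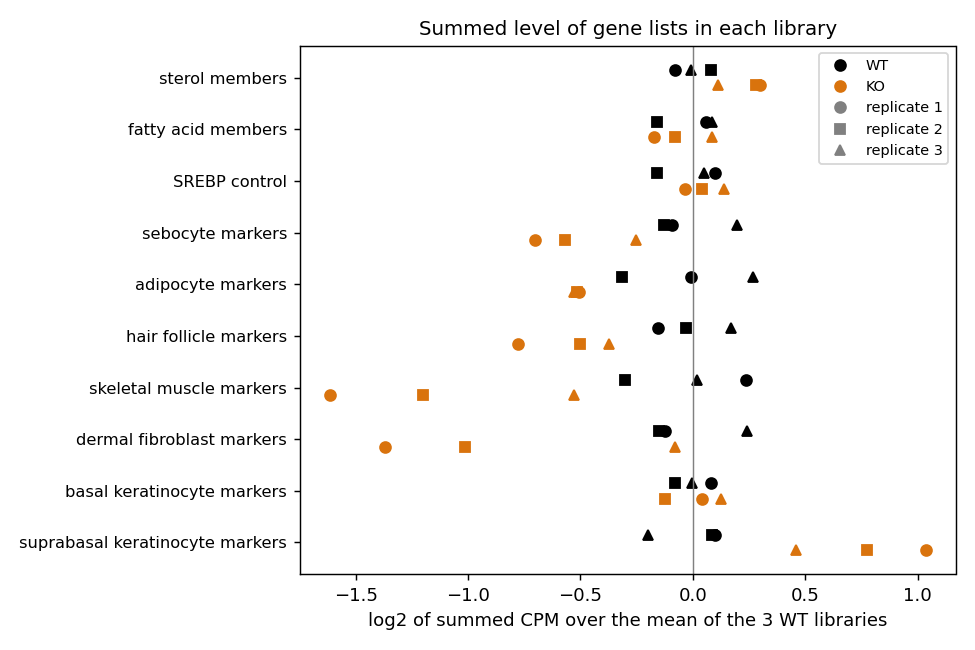
Summed CPM of each gene list (rows) in each library, as log2 over the mean of the 3 WT libraries (horizontal axis); black is WT, orange is KO and marker shape gives the replicate number. The sterol sums of KO lie right of all WT libraries, the fatty acid and SREBP control sums overlap, and the sums of sebocyte, adipocyte, hair follicle and skeletal muscle markers lie left of WT.

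Levels between genes can be set side by side only per length. Per kilobase of exon, Hmgcs1 had the highest WT mean of the 36 genes (117 CPM per kb), followed by Scd2 (82.9), Elovl1 (77.4), Acly (63.2) and Fasn (58.5). At the low end stood Acss2 (4.01), Tm7sf2 (4.09), Acaca (6.50) and Sc5d (7.06). Sc5d, the gene that rose, was thus one of the scarcest messages of the list, and it reached 11.6 CPM per kb in KO. Acacb exceeded Acaca in WT (25.5 against 6.50 CPM per kb) and was still above it in KO (13.2 against 8.53), on the assumption that all annotated exons are used.

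KO3 decided much of what passed the test. Without it, 5 of the 36 genes rose (13.9%, against 16.9% of all genes tested in that fit) and 5 fell (13.9%, against 16.2%). The genes that rose without KO3 were Idi1, Cyp51, Sc5d, Stard4 and Acaca, and those that fell were Tm7sf2, Acss2, Acacb, Elovl5 and Fads1. By edgeR's exact test 6 of the 36 genes passed with all 6 libraries (16.7%, against 14.9% of all tested genes), namely Idi1, Cyp51, Sc5d, Stard4, Acacb and Elovl5. The median standard error of the log2 fold change was 0.15, and the 95% interval lay inside -1 to 1 for 31 genes, the exceptions being Idi1, Cyp51, Sc5d, Stard4 and Acacb.

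The further genes listed for these routes did not pass the test, while the desaturase gene Scd3 was listed with the sebocyte markers. Of 12 other synthesis genes none rose or fell. Elovl4, an elongase of the very long chains of barrier lipids, had a log2 fold change of -0.38 (adjusted p = 0.157, edgeR), and Tecr, the reductase of the elongation cycle, one of -0.50 (adjusted p = 0.152). Of 10 genes of lipoprotein uptake, sterol transport and storage none passed. Lrp1, an endocytic lipoprotein receptor, had a value of -0.60 (adjusted p = 0.136) and Scarb1, the HDL receptor, one of -0.56 (adjusted p = 0.124). Of 11 further regulators none passed, and the lowest p values were those of Mlxipl, the gene of the glucose-responsive factor ChREBP (-0.81, adjusted p = 0.0544), Prkaa2, a catalytic subunit of AMP-activated kinase (-0.52, adjusted p = 0.0834), and Mlx, the partner of ChREBP (0.30, adjusted p = 0.192).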

How the data were processed

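The authors aligned paired-end reads with TopHat2 2.0.8 and Bowtie2 2.1.0 on GRCm38 and deposited the counts that HTSeq assigned to each gene, as whole numbers without normalization. The HTSeq mode and the strand setting are not given in the sources used here, so genes with overlapping exons are uncertain. All 6 count columns were used and 0 were left out. The 36 genes and all other lists were chosen with earlier results of these data known.

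The 15009 genes that reached 1 CPM in 3 or more libraries were scaled by TMM and tested with the edgeR quasi-likelihood F test on all 6 libraries (edgeR 4.0.16, limma 3.58.1, R 4.3.3), with genotype as the only term and Benjamini-Hochberg adjustment over all tested genes. CPM values use TMM-scaled library sizes, SE is that of the log2 fold change (KO over WT), and p values measure the spread among 3 mice per group. Gene pairs were compared by exact permutation tests. Named were all 36 genes, with library values for SREBP control genes, genes that passed, the 3 highest and 3 lowest fold changes among sterol and among fatty acid genes, and Fdps, Sqle, Fasn and Scd2. Of the other pathway lists, up to 3 genes with the lowest p values were named. Library values of Hmgcs1, Cyp51, Pmvk, Acly, Acss2 and Fads2 were added after their values were seen. Some genes of these lists are not reported here by name. Marker lists are given by their sums and called genes. Of 36 symbols 35 matched the table and 1 (Msmo1, listed as Sc4mol) matched by a RefSeq synonym. Exon overlaps and near-identical copies (at least 100 bases at 98% identity) came from the GENCODE annotation of GRCm38. Promoters were RefSeq's. The fit was checked on simulated counts. Alternatives were the edgeR exact test (used in the study), DESeq2 1.42.0, limma-voom, other scalings and filters, a replicate block, and leaving out each library.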

Additional observations from a re-analysis of the deposited data

How the results depend on the processing

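Of the 36 genes, the quasi-likelihood test called 1 higher and 2 lower. Called higher were 4 by the exact test, 4 by DESeq2, 4 at an adjusted p under 0.1, 2 without the filter and 0 by limma-voom, by library size alone or with at least 10 counts in every library. Called lower were 0 with DESeq2 size factors, without the filter or with the stricter filter, and 1 by library size alone. Leaving out 1 library gave 0 to 5 higher and 0 to 5 lower, in both cases 5 without KO3. Of all tested genes (657 higher, 314 lower), the exact test called 1165 and 1073, DESeq2 1511 and 898, an adjusted p under 0.1 gave 1248 and 1281, and leaving out 1 library gave 208 to 2496 higher and 18 to 2395 lower. Only 207 genes were lower with DESeq2 size factors, and 204 with either other filter. The median of the 36 log2 fold changes was 0.044 by DESeq2, -0.055 with upper-quartile scaling, 0.052 without the filter and -0.0024 to 0.072 without 1 library. The cause of these shifts was not tested.

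The replicate numbers are not known to mark shared litters or days. The same-numbered libraries deviated together with correlations of -0.192, 0.293 and 0.312, and WT2 correlated best with KO1 (0.407). With the replicate block 2 of the 36 genes were higher (Sc5d and Stard4) and 0 lower.

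Signs changed only in values near 0. With DESeq2, DESeq2 size factors and no filter, Mvk was at 0.033, 0.019 and 0.042, Lss at 0.028, 0.012 and 0.037 and Insig1 at 0.038, 0.024 and 0.046. With upper-quartile scaling Pmvk was at -0.048, Scap at -0.012 and Insig2 at -0.036, and by library size alone Pmvk was at -0.0039. Leaving out 1 library gave ranges of -0.16 to 0.11 for Acat2, -0.031 to 0.071 for Mvk, -0.0096 to 0.087 for Pmvk, -0.13 to 0.055 for Mvd, -0.055 to 0.089 for Lss, -0.15 to 0.019 for Nsdhl, -0.25 to 0.10 for Srebf1, -0.011 to 0.13 for Scap, -0.0048 to 0.062 for Insig1 and -0.030 to 0.17 for Insig2.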

Other observations

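Outside the 36 genes, 1 stearoyl-CoA desaturase gene rose, while Scd2 among the 36 did not pass the test. Scd3, which is known from sebaceous glands, was at 21.8, 29.0 and 9.31 CPM in WT and at 223, 157 and 168 CPM in KO (log2 fold change 3.19, SE 0.39, adjusted p = 0.0025, edgeR quasi-likelihood test). KO libraries were far above WT in every case, KO3 included. Scd1, the main stearoyl-CoA desaturase of sebaceous glands, was at 3867, 3162 and 4075 CPM in WT and 1987, 2670 and 3691 CPM in KO, with KO3 inside the WT range (log2 fold change -0.41, SE 0.26, adjusted p = 0.322). The 3 desaturase genes Scd1, Scd2 and Scd3 thus had log2 fold changes of -0.41, 0.37 and 3.19. Awat1, a wax synthase of sebocytes, fell from 223, 267 and 295 CPM in WT to 121, 115 and 131 CPM in KO (log2 fold change -1.09, adjusted p = 0.0041). Elovl3, a sebaceous elongase, was at 508, 477 and 636 CPM in WT and 300, 341 and 422 CPM in KO, without overlap (log2 fold change -0.61, adjusted p = 0.0808).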
